A study of Mus musculus with 8 samples.

Results

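The genes followed here are the clade B serpins of the mouse, the Serpinb family of protease inhibitors, in 8 RNA-seq libraries of epithelial cells sorted by FACS from skin epidermis. Every row of the deposited table whose gene name begins with Serpinb and a digit was taken as a member, which gave 25 of the 32574 genes listed. The libraries form 4 groups of 2. The K14 ablation and Lrig1 ablation groups carry basal lineage ablation, and the K14 control and Lrig1 control groups are wild type; K14 and Lrig1 name the population as the labels give it. The labels do not say what drives the ablation in each population, the age or strain of the mice, or whether the 2 libraries of a group came from separate animals, so the p-values measure the spread between libraries, which may be technical. Values are normalised read counts as deposited by the authors, and library depth ran from 6458636 to 11654135 reads.

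Serpins block proteases by a suicide mechanism: the protease cuts an exposed loop of the serpin and is trapped in a covalent complex. Clade B members lack a classical signal peptide and act mainly inside the cell, where they guard the cytoplasm against proteases released from granules or lysosomes. In stratified epithelia several members are made by keratinocytes, some of them mainly as the cells differentiate, and human mutations of SERPINB7 and SERPINB8 cause inherited disorders of cornification.

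All 25 members were above 0 in at least 1 library, 20 reached 3 reads in at least 1 library and 17 were above 0 in all 8. The 16 members that held 1e-06 or more of a library's reads in 2 or more libraries were tested. Of these, 15 reached that level in all 4 groups, and Serpinb11 reached it in every group but K14 ablation. The family lies in 2 clusters (GRCm38): 12 members on chromosome 1 between 106861173 and 107610484, all 12 of which were tested, and 13 members on chromosome 13 between 32842092 and 34002794, of which 4 were tested. The 9 members not tested, Serpinb1-ps1, Serpinb1b, Serpinb1c, Serpinb6b, Serpinb6d, Serpinb6e, Serpinb9b, Serpinb9c and Serpinb9g, are all on chromosome 13 and none exceeded the 10.6 normalised reads of Serpinb6b in one K14 ablation library.

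Per kilobase of exon, Serpinb5 had the highest mean level of the family in K14 ablation (1155), Lrig1 ablation (1122) and Lrig1 control cells (2328 normalised reads per kilobase), and Serpinb2 in K14 control cells (2945). In Lrig1 control cells Serpinb2 (1744) and Serpinb3b (1716) came next, and the libraries of these neighbours overlapped on this scale. Serpinb2, Serpinb5 and Serpinb3b together made up 67.8% and 61.7% of the family's reads in K14 ablation, 77.2% and 77.5% in K14 control, 57.7% and 71.5% in Lrig1 ablation and 81.0% and 79.7% in Lrig1 control libraries. At the low end, group means ran from 4.84 to 7.39 for Serpinb9, from 5.77 to 20.1 for Serpinb3c and from 1.06 to 23.3 for Serpinb11, in normalised reads per kilobase.

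**Figure D1:**
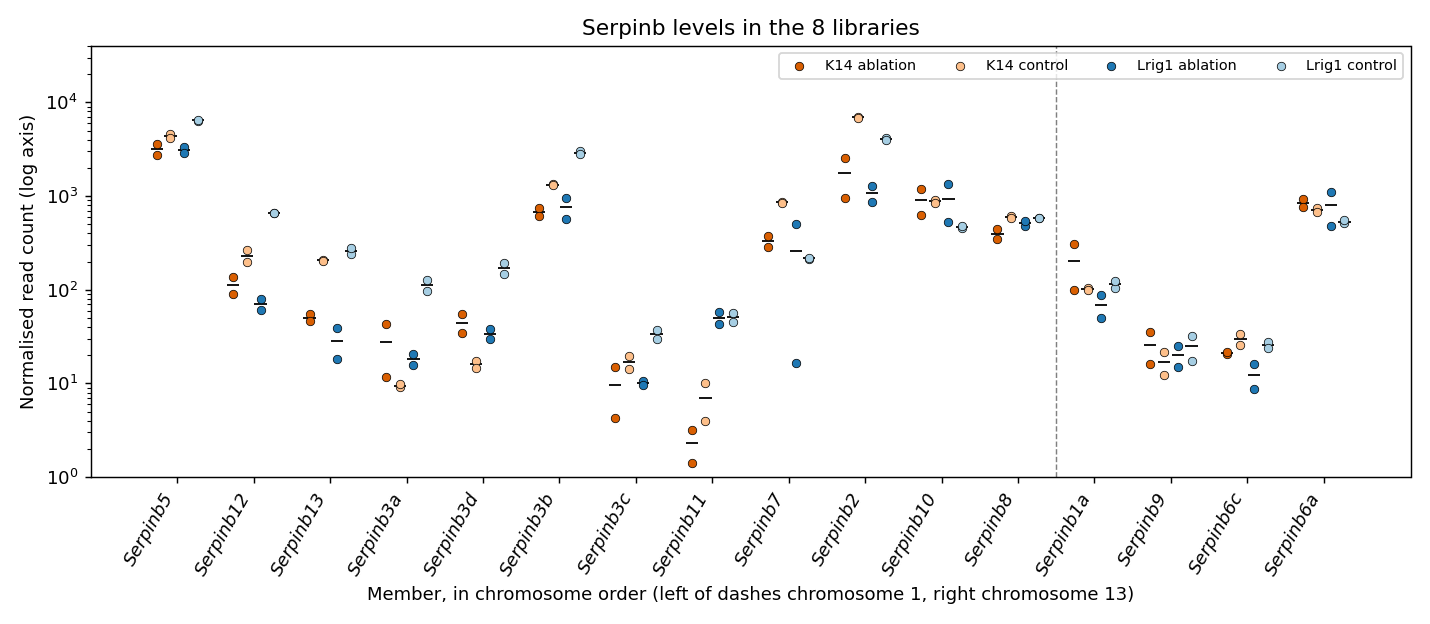
Normalised read count (log axis) of the 16 tested Serpinb members in each of the 8 libraries; colours mark the 4 groups, each point is 1 library, and the dashed line separates the members on chromosome 1 from those on chromosome 13. Serpinb5 reaches 6518 and Serpinb2 reaches 7021, and Serpinb11 and Serpinb3c are among the lowest.

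The cells carried the keratinocyte markers of the labelled tissue: all 7 basal and all 8 suprabasal markers were above 0 in every library. The summed basal markers, among them Krt5 and Krt14, stood at 214964 and 206410.5 normalised reads in K14 ablation, 180521 and 177686 in K14 control, 209178 and 90747 in Lrig1 ablation and 107216 and 116747 in Lrig1 control libraries. The 2 Lrig1 ablation libraries thus differed from each other more than the libraries of any other group. The summed suprabasal markers stood at 82230.5 and 56948 in K14 ablation, 72605 and 67822 in K14 control, 35290.2 and 34126 in Lrig1 ablation and 110338 and 124600.0 in Lrig1 control libraries. Leukocyte and endothelial markers were far lower, with sums up to 268 and 868 in Lrig1 control libraries. Libraries of a group differed more after ablation: the chi-square of their recovered reads averaged 27.7 for each gene in K14 ablation and 39.5 in Lrig1 ablation, against 1.57 in K14 control and 2.58 in Lrig1 control. No 2 libraries of a group agreed within sampling noise.

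**Figure D2:**
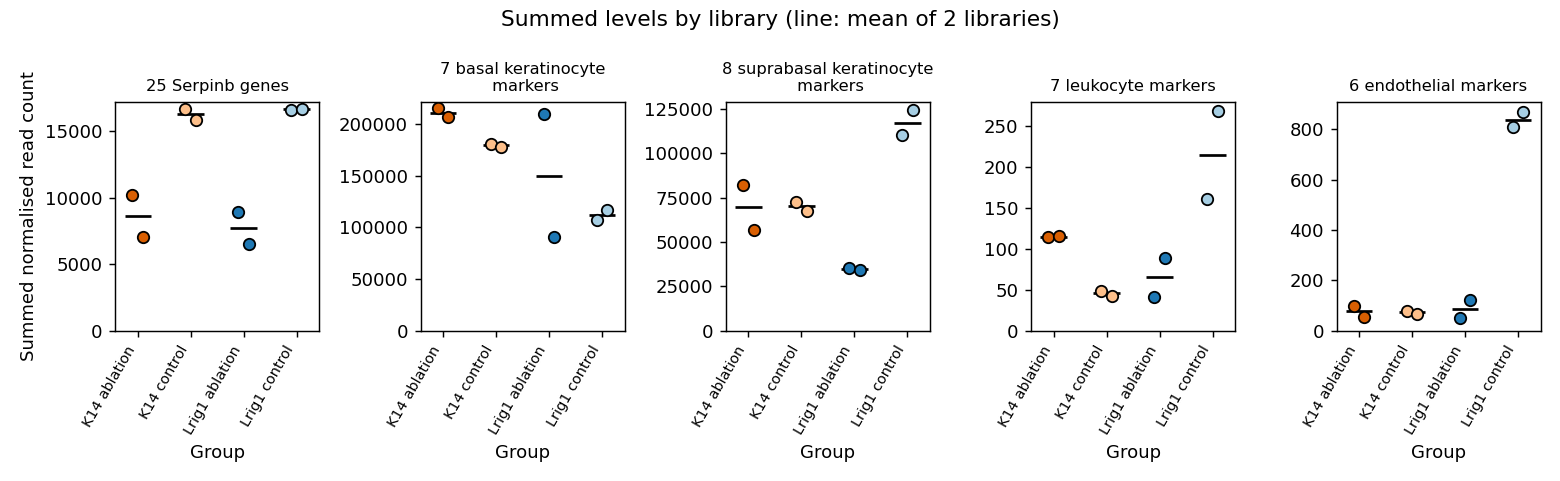
Summed normalised read counts of the 25 Serpinb genes and of the basal, suprabasal, leukocyte and endothelial marker lists in each library, by group. The Serpinb sum is below the control libraries in all 4 ablation libraries; the endothelial sum stands at 809 and 868 in the Lrig1 control libraries.

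Taken as a sum, Serpinb reads were a smaller part of the library after ablation in both populations. They were 0.124% and 0.0844% of the K14 ablation libraries against 0.199% and 0.188% of the K14 control libraries, and 0.114% and 0.0903% of the Lrig1 ablation libraries against 0.187% and 0.184% of the Lrig1 control libraries. The groups did not overlap in either population. In bulk samples, fewer cells of a type and less RNA per cell cannot be told apart.

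In Lrig1 cells, 7 of the 16 tested members fell with ablation and none rose at a limma adjusted p under 0.05, where 4.06% of the 18140 genes tested passed in either direction and 3.3% passed as lower. The 7 were Serpinb12, Serpinb13, Serpinb3a, Serpinb3d, Serpinb2, Serpinb3b and Serpinb5, all in the chromosome 1 cluster. Over all 16, 14 log2 fold changes were negative and 2 positive, with a median of -1.14 against -0.017 for all genes tested. The median was -1.79 for the 12 chromosome 1 members and -0.53 for the 4 tested on chromosome 13. On the recovered reads, edgeR and DESeq2 called the same 7 members, where they called 3.24% and 5.49% of genes. Without the first or the second Lrig1 control library 0 of the 7 passed, where 0.0279% and 0.0335% of genes did, and their log2 fold changes moved by at most 0.20. Without the first or the second K14 control library, which enter only the estimate of spread, 4 of the 7 passed, where 1.01% and 1.0% of genes did, and Serpinb2, Serpinb3a and Serpinb5 did not. Without the second Lrig1 ablation library the log2 fold changes of the 7 stayed negative. Those of Serpinb7, Serpinb10 and Serpinb6a were positive there, at 1.19, 1.505 and 1.06. Without the first Lrig1 ablation library the same 3 genes stood at -3.62, 0.16 and -0.15, and the 7 stayed negative.

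In K14 cells, 0 of the 16 passed with ablation, where 0.187% of genes did. At an unadjusted p under 0.05 there were 8 members, 7 of them lower, beside 12.8% of all genes. edgeR called 0 members, with 0.176% of genes, and DESeq2 called 3, Serpinb2, Serpinb3b and Serpinb13, with 1.21% of genes. Over the 16, 11 log2 fold changes were negative and 5 positive, with a median of -0.53 against -0.0018 for all genes. Without either Lrig1 ablation library, which enters this comparison only through the spread, 4 members passed, Serpinb2, Serpinb3b, Serpinb7 and Serpinb13, and so did 3.81% of genes without the first and 4.17% without the second. Without the first or the second K14 ablation library Serpinb2 alone passed, where 0.0888% and 1.46% of genes did.

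The difference between the 2 ablation effects, Lrig1 minus K14, was called for 1 member, Serpinb3d, where 0.198% of genes passed. Between the control groups, 10 of the 16 log2 fold changes were positive and 6 negative. Of all genes, 8.79% passed in either direction and 6.52% as higher. Of the members, 5 passed as higher in Lrig1 control than in K14 control cells and none as lower: Serpinb3a, Serpinb3d, Serpinb11, Serpinb12 and Serpinb3b. That count was 1, Serpinb3d, without the first or the second K14 control library, where 0.506% and 0.533% of genes passed. It was 0 without the first or the second Lrig1 control library, where 0.0112% and 0.00559% of genes passed. In these fits the log2 fold changes of the 5 moved by at most 0.59, that of Serpinb11. The count was 12 when the fit held only the 4 control libraries, where 42.9% of genes passed. The members gained there were Serpinb3c, Serpinb5 and Serpinb13, which were higher in Lrig1 control cells, and Serpinb2, Serpinb6a, Serpinb7 and Serpinb10, which were lower. Serpinb7 stood at -1.97 on the log2 scale. The comparison of the control groups and the comparisons with ablation share the control libraries, so their values are given side by side for each gene.

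**Figure D3:**
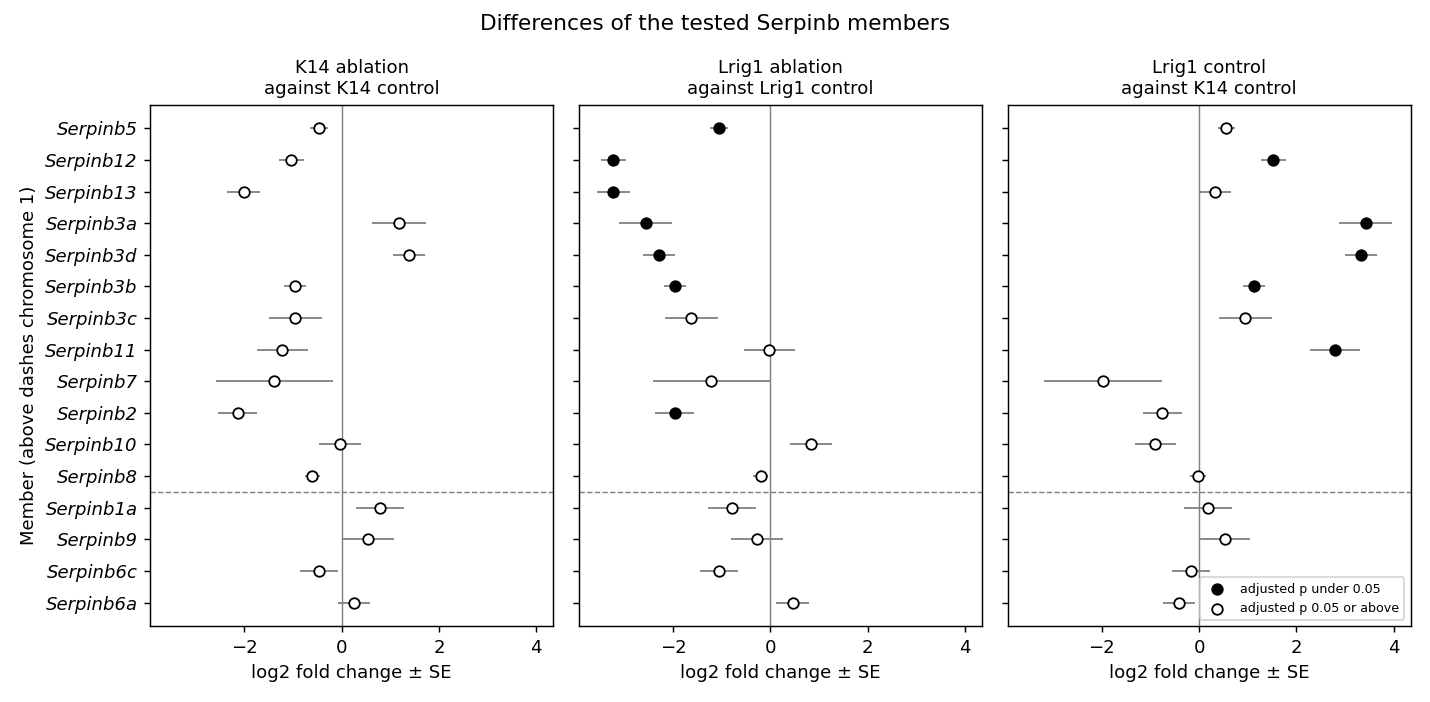
Log2 fold change (± SE, limma) of the 16 tested members for K14 ablation, Lrig1 ablation and Lrig1 control against K14 control; filled points have an adjusted p under 0.05. Filled points lie below 0 for 7 members under Lrig1 ablation and above 0 for 5 members between the control groups, and the K14 ablation panel holds none.

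Serpinb2 (ENSMUSG00000062345, chr1:107511423-107535478, + strand) encodes plasminogen activator inhibitor 2, which blocks urokinase and is made by differentiating keratinocytes and activated macrophages. Its level was 1267 and 868 normalised reads in Lrig1 ablation libraries, against 4186 and 4006 in Lrig1 control libraries. It was 2573 and 962 in K14 ablation libraries, against 7021 and 6816 in K14 control libraries. All 4 ablation libraries lay below all 4 control libraries. The Lrig1 ablation mean was lower by 3.84-fold, with a limma log2 fold change of -1.96 ± 0.40 (SE; adjusted p = 0.0365). In K14 cells the log2 fold change was -2.14 ± 0.40, with a limma adjusted p of 0.117, and the difference between the effects was 0.17 ± 0.56 (limma adjusted p = 0.913). Its part of all Serpinb reads was 14.2% and 13.3% in Lrig1 ablation libraries against 25.2% and 24.0% in Lrig1 control libraries, and 25.2% and 13.7% in K14 ablation libraries against 42.0% and 43.0% in K14 control libraries. In Lrig1 cells its adjusted p ranged up to 0.262 over the alternatives, and the call was lost when either K14 control, either Lrig1 control or the second Lrig1 ablation library was left out. Its exons overlap those of Serpinb10 by 291 bases on the same strand, 12.4% of its exon length, so reads from that stretch could have been split or dropped by the counting.

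The target of plasminogen activator inhibitor 2, urokinase (Plau), had 478 and 197 normalised reads in Lrig1 ablation libraries against 527 and 498 in Lrig1 control libraries, and 872 and 580.0 in K14 ablation libraries against 1013 and 1071 in K14 control libraries. Its ablation libraries also lay below their controls in both populations. Neither comparison passed, with limma log2 fold changes of -0.74 (adjusted p = 0.318) in Lrig1 cells and -0.55 (adjusted p = 0.570) in K14 cells.

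The Serpinb3 genes, Serpinb3a to Serpinb3d, are the mouse relatives of the human squamous cell carcinoma antigens, which inhibit cysteine cathepsins and chymotrypsin-like serine proteases. They are neighbours on the - strand of chromosome 1. The annotated span of Serpinb3b (107153940 to 107278361) overlaps that of Serpinb3c (107271201 to 107278371). Of the 4 copies with Serpinb2 and Serpinb12 from the same cluster, 5 genes passed in at least 1 comparison. The other, Serpinb3c, is the closest copy of Serpinb3b. The upstream sequences of these 6 genes are shown, and not those of every member that passed. Each run is the 250 bases before an annotated start (RefSeq, GRCm38.p6), written 5′ to 3′ on the gene's own strand. Serpinb2 and Serpinb12 have 2 such starts, and the first is shown. The window of Serpinb3b lies inside the gene's GENCODE span, not at its 5′ end. Capitals mark a TATAAA or its reverse complement TTTATA.
Serpinb3a (chr1:107052304-107052553, - strand): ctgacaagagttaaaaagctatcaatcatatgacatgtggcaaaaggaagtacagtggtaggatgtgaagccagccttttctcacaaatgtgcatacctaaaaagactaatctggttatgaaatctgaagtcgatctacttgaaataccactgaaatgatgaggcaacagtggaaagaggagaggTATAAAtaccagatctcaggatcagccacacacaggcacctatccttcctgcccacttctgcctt
Serpinb3b (chr1:107161115-107161364, - strand): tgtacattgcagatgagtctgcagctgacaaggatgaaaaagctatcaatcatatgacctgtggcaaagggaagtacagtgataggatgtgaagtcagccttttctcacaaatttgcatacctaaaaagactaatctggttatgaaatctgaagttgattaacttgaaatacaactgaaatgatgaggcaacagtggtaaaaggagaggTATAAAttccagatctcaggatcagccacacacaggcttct
Serpinb3c (chr1:107278372-107278621, - strand): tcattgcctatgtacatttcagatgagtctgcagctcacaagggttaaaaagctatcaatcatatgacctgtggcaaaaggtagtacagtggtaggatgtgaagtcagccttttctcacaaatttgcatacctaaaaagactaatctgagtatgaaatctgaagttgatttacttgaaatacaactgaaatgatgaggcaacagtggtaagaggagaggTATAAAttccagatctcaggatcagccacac
Serpinb3d (chr1:107083481-107083730, - strand): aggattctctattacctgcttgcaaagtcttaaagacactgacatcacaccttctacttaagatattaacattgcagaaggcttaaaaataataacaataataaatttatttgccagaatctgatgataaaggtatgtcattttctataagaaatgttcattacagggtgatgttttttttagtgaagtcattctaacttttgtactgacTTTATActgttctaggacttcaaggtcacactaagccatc
Serpinb2 (chr1:107511173-107511422, + strand): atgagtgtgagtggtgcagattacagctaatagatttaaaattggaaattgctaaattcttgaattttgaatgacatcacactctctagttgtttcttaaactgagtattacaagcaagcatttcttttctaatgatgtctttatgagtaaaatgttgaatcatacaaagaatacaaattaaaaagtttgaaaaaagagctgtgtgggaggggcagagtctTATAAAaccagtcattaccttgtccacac
Serpinb12 (chr1:106934199-106934448, + strand): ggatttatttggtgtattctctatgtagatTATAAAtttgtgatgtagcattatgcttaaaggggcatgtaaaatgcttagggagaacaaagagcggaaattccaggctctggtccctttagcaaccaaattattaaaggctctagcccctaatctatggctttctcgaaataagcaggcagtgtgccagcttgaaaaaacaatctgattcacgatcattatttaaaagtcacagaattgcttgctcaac

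Aligned over these windows, Serpinb3b and Serpinb3c were identical at 88.1% of positions, Serpinb3a matched Serpinb3b at 77.0% and Serpinb3c at 71.5%. Serpinb3d was set apart: it matched the other copies at 46.6% to 48.5% of positions, within the 46.0% to 52.2% at which Serpinb3a, Serpinb3b and Serpinb3c matched Serpinb2 and Serpinb12. A TATAAA or TTTATA began 31 bases before the start in Serpinb3c, 40 in Serpinb3d, 41 in Serpinb3b and 65 in Serpinb3a. Before the first starts it began at 29 bases in Serpinb2 and 220 in Serpinb12. Before their second starts a match began at 116 and 201 bases. Of the 14 tested members with a matched RefSeq window, 7 held this motif, against 12.4% of the 32851 promoters in the reference table. The windows of Serpinb5 and Serpinb11, which also passed and are not shown, held none, and Serpinb13 had no matched window. The AP-1 site TGACTCA or its reverse complement TGAGTCA was found in Serpinb7 and Serpinb8, 2 of the 14, against 4.46% of all promoters. These matches describe the letters of the windows only.

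Serpinb3b was the most abundant copy in every library. It had 575 and 959 normalised reads in Lrig1 ablation libraries, against 3002 and 2791 in Lrig1 control libraries, and 745 and 619 in K14 ablation libraries, against 1341 and 1301 in K14 control libraries. Ablation libraries were the lower ones in both populations, without overlap. With Lrig1 ablation the mean was lower by 3.78-fold, with a limma log2 fold change of -1.96 ± 0.23 (SE; adjusted p = 0.00610). In K14 cells the log2 fold change of -0.96 ± 0.23 did not pass (limma adjusted p = 0.185). Between the control groups Serpinb3b was 2.19-fold higher in Lrig1 control cells, at 1.13 ± 0.23 on the log2 scale (limma adjusted p = 0.0237).

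Serpinb3d had 38.2 and 29.5 normalised reads in Lrig1 ablation libraries, against 147 and 195 in Lrig1 control libraries. In K14 cells the order was the other way: 54.5 and 34.3 in K14 ablation libraries, against 17.3 and 14.8 in K14 control libraries. The 4 ablation libraries lay between the K14 controls, which were lowest, and the Lrig1 controls, which were highest. The Lrig1 ablation mean was lower by 5.05-fold, with a limma log2 fold change of -2.30 ± 0.33 (SE; adjusted p = 0.0126), while the K14 log2 fold change was 1.38 ± 0.33 (limma adjusted p = 0.178). The difference between the effects, -3.68 ± 0.46 on the log2 scale, passed with a limma adjusted p of 0.0401. It was not called when low values were filtered more strictly or not at all, where 2 of 11031 and 5 of 32306 genes passed. It was also not called when any of the 4 control libraries was left out, which leaves 1 library in a group. In those fits the difference ran from -3.88 to -3.48, and the share of all genes passing fell too. Lrig1 control cells had 10.7-fold the level of K14 control cells, at 3.32 ± 0.33 (limma adjusted p = 0.00314).

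Serpinb3a followed the same arrangement at lower counts. It had 20.4 and 15.9 normalised reads in Lrig1 ablation libraries, against 97.8 and 127 in Lrig1 control libraries, and 43.2 and 11.8 in K14 ablation libraries, against 9.14 and 9.85 in K14 control libraries. The Lrig1 control libraries were again the highest of the 8 and the K14 controls the lowest. The Lrig1 ablation mean was lower by 6.18-fold, with a limma log2 fold change of -2.56 ± 0.55 (SE; adjusted p = 0.0440). This call was lost without either K14 control, either Lrig1 control or the second Lrig1 ablation library, and also with a stricter filter on low values or none, and its adjusted p over the alternatives reached 0.321. In K14 cells the log2 fold change was 1.18 ± 0.55 (limma adjusted p = 0.414), and the difference between the effects, -3.74 ± 0.77, did not pass with limma (adjusted p = 0.0947). Lrig1 control cells had 11.8-fold the level of K14 control cells, at 3.42 ± 0.55 (limma adjusted p = 0.0108).

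Serpinb3c passed in no comparison. It had 10.7 and 9.55 normalised reads in Lrig1 ablation libraries, against 37.3 and 29.6 in Lrig1 control libraries, and 14.9 and 4.29 in K14 ablation libraries, against 14.2 and 19.7 in K14 control libraries. The Lrig1 groups did not overlap, and the K14 groups did. The log2 fold changes were -1.63 ± 0.55 in Lrig1 cells and -0.95 ± 0.55 in K14 cells (limma adjusted p = 0.148 and 0.505).

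The ratio between the copies was not tested and is given by library. Serpinb3b had 13.7 and 18.0 reads for each read of Serpinb3d in K14 ablation libraries, against 77.6 and 88.1 in K14 control libraries. In Lrig1 cells the ratio was 15.1 and 32.6 in ablation libraries, against 20.5 and 14.3 in control libraries, which overlapped. The K14 control libraries stand apart from the other 6 in this ratio, whereas Serpinb3d to Serpinb3a stayed between 1.26 and 2.91 in all 8. Part of the reads cannot be placed with certainty among the copies: 14.3% of the 50-base stretches of Serpinb3b occur in another member, as do 9.44% of those of Serpinb3c, 6.51% of Serpinb3a and 4.97% of Serpinb3d. The annotated exons of Serpinb3b and Serpinb3c also share 35 bases.

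**Figure D4:**
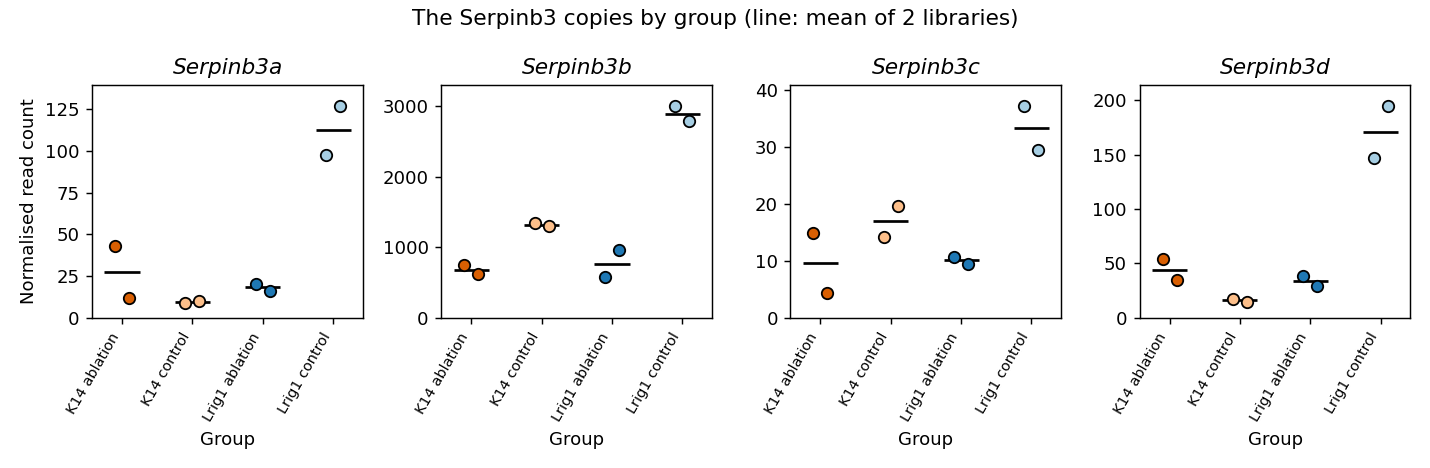
Normalised read count (linear axis, a scale for each gene) of Serpinb3a, Serpinb3b, Serpinb3c and Serpinb3d in the 4 groups; each point is 1 library and the line is the mean of 2. All 4 genes are highest in the Lrig1 control libraries; K14 control libraries are lowest for Serpinb3a and Serpinb3d but not for Serpinb3b or Serpinb3c.

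Serpinb12, a clade B serpin whose human form inhibits trypsin-like proteases, had the largest fold change of the 7 together with Serpinb13. Its level was 61.2 and 78.8 normalised reads in Lrig1 ablation libraries, against 664 and 661 in Lrig1 control libraries, and 138 and 89.0 in K14 ablation libraries, against 265 and 198 in K14 control libraries. All 4 ablation libraries were below all 4 controls. The Lrig1 ablation mean was lower by 9.46-fold, with a limma log2 fold change of -3.23 ± 0.26 (SE; adjusted p = 0.00197). The K14 log2 fold change was -1.04 ± 0.26 (limma adjusted p = 0.190), and the difference between the effects, -2.19 ± 0.36, had a limma adjusted p of 0.0652. Lrig1 control cells had 2.86-fold the level of K14 control cells, at 1.53 ± 0.26 (limma adjusted p = 0.0127).

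Serpinb13, whose human counterpart hurpin inhibits cathepsins L and K, had 39.0 and 18.3 normalised reads in Lrig1 ablation libraries, against 239 and 282 in Lrig1 control libraries. In K14 cells it had 54.5 and 46.1 in ablation libraries, against 208 and 204 in control libraries. Ablation libraries were lower in both populations, with no overlap. With Lrig1 ablation the mean was lower by 9.08-fold, with a limma log2 fold change of -3.23 ± 0.33 (SE; adjusted p = 0.00362). The K14 log2 fold change was -2.02 ± 0.33, with a limma adjusted p of 0.0832, and its limma adjusted p was 0.00628 and 0.00556 without the first and the second Lrig1 ablation library and up to 0.807 without a K14 control library. The difference between the effects, -1.21 ± 0.47, did not pass (limma adjusted p = 0.291).

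Serpinb5 encodes maspin, a serpin that inhibits no known protease in the classical way and is abundant in keratinocytes. It had 3317 and 2855 normalised reads in Lrig1 ablation libraries, against 6285 and 6518 in Lrig1 control libraries, and 3596 and 2755 in K14 ablation libraries, against 4544 and 4165 in K14 control libraries. The groups did not overlap in either population. With Lrig1 ablation the mean was lower by 2.07-fold, with a limma log2 fold change of -1.06 ± 0.18 (SE; adjusted p = 0.0196), the smallest change of the 7. That call was lost without any 1 of the 4 control libraries and in a fit of the Lrig1 libraries alone, with an adjusted p of up to 0.227 over the alternatives. The K14 log2 fold change was -0.47 ± 0.18 (limma adjusted p = 0.337).

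Serpinb11 was low in K14 cells. It had 45.4 and 56.4 normalised reads in Lrig1 control libraries, against 10.2 and 3.94 in K14 control libraries, a 7.22-fold higher mean with a limma log2 fold change of 2.80 ± 0.52 (SE; adjusted p = 0.0167). The Lrig1 ablation libraries held 43.5 and 57.3 and the K14 ablation libraries 1.42 and 3.22, of which the lowest rests on 2 reads. Lrig1 ablation and Lrig1 control libraries overlapped, with a limma log2 fold change of -0.02 ± 0.52 (SE; adjusted p = 0.990), and every Lrig1 library was above every K14 library. The call between the control groups was lost without any 1 of the 4 control libraries (adjusted p up to 0.162 over the alternatives).

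Serpinb7 (megsin), whose loss in humans causes Nagashima-type palmoplantar keratosis, had 497 and 16.7 normalised reads in Lrig1 ablation libraries, against 214 and 219.9 in Lrig1 control libraries. The first Lrig1 ablation library was thus above the controls and the second far below them. In K14 cells it had 284 and 375 in ablation libraries, against 866 and 844 in control libraries, with no overlap. No comparison passed, with log2 fold changes of -1.21 ± 1.21 in Lrig1 cells and -1.39 ± 1.21 in K14 cells (limma adjusted p = 0.631 and 0.664). The Lrig1 ablation libraries decided this: without the second, the Lrig1 log2 fold change was 1.19 (limma adjusted p = 0.00939), and without the first it was -3.62 (limma adjusted p = 0.000807). Without the first or the second, the K14 limma adjusted p was 0.0118 and 0.0101.

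Serpinb8, linked in humans to a peeling skin syndrome, varied little. It had 479 and 548 normalised reads in Lrig1 ablation libraries, against 589 and 588 in Lrig1 control libraries, and 442 and 349 in K14 ablation libraries, against 608 and 586 in K14 control libraries. The log2 fold changes were -0.20 ± 0.16 and -0.60 ± 0.16 (limma adjusted p = 0.539 and 0.216), and ablation libraries were the lower ones in both populations without overlap.

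Serpinb10 (bomapin) is known in humans from haematopoietic cells and is annotated in mouse as a polymorphic pseudogene. It had 1333 and 525 normalised reads in Lrig1 ablation libraries, against 456 and 482 in Lrig1 control libraries, and 1179 and 624 in K14 ablation libraries, against 913 and 847 in K14 control libraries. Both Lrig1 ablation libraries were above their controls, and the K14 groups overlapped. Its log2 fold change of 0.83 ± 0.42 was the highest of the family in Lrig1 cells and did not pass (limma adjusted p = 0.320). Without the second Lrig1 ablation library it was 1.505 and passed (limma adjusted p = 0.0300), and without the first it was 0.16; the adjusted p over the fits without 1 library reached 0.760. The 291 exon bases it shares with Serpinb2 are 8.34% of its exon length.

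On chromosome 13, the tested members are inhibitors of leukocyte granule proteases or their close copies, and none passed in any of the 4 comparisons. Serpinb1a, an inhibitor of neutrophil elastase, cathepsin G and proteinase 3, had 99.1 and 308 normalised reads in K14 ablation libraries, against 104 and 98.5 in K14 control libraries. The second K14 ablation library was the highest of the 8 and the first lay among the controls. In Lrig1 cells Serpinb1a had 88.7 and 49.4 in ablation libraries, against 105 and 125 in control libraries. Its log2 fold changes were 0.79 ± 0.49 in K14 cells and -0.78 ± 0.49 in Lrig1 cells (limma adjusted p = 0.539 and 0.426).

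Serpinb6a, an inhibitor of cathepsin G, had 1113 and 481 normalised reads in Lrig1 ablation libraries, against 512 and 554 in Lrig1 control libraries, and 925 and 773 in K14 ablation libraries, against 738 and 677 in K14 control libraries. The 2 Lrig1 ablation libraries lay on either side of their controls, and both K14 ablation libraries lay above theirs. The log2 fold changes were 0.46 ± 0.33 in Lrig1 cells and 0.26 ± 0.33 in K14 cells (limma adjusted p = 0.496 and 0.782). The first Lrig1 ablation library was also the higher of the pair for Serpinb7, Serpinb10 and the summed basal markers, whose part in this was not tested. Exons of Serpinb6a overlap those of Nqo2, 1110046J04Rik and Ripk1 on the opposite strand by 762, 584 and 241 bases. Because the sources used here do not state the strand setting of the counting, reads there may belong to either gene.

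Serpinb6c ranged from 8.76 to 33.5 and Serpinb9, the inhibitor of granzyme B, from 12.2 to 35.4 normalised reads over the 8 libraries. The log2 fold changes of Serpinb6c were -1.06 ± 0.39 in Lrig1 cells and -0.46 ± 0.39 in K14 cells, and those of Serpinb9 were -0.28 ± 0.53 and 0.54 ± 0.53 (limma adjusted p = 0.178, 0.652, 0.818 and 0.707, in that order). Of the granule proteases that these members are known to inhibit, Elane reached at most 1.59, Prtn3 3.94 and Gzmb 1.41 normalised reads in any library. No level of cathepsin G is given here. The neutrophil markers summed to between 0.796 and 5.82 normalised reads, with 5 of 6 genes in the table and none tested. The T and cytotoxic cell markers summed to between 2.82 and 32.2 normalised reads, with 4 of 6 genes in the table.

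In a list of 15 proteases that includes targets of clade B serpins, 13 were in the table and 8 were tested. In Lrig1 cells 0 rose and 1 fell with ablation, cathepsin S (Ctss), a cysteine protease of antigen-presenting cells. It had 12.4 and 8.76 normalised reads in Lrig1 ablation libraries, against 82.7 and 142 in Lrig1 control libraries (log2 fold change -3.26 ± 0.42 SE, limma adjusted p = 0.00852). In K14 cells it had 38.2 and 54.7 in ablation libraries, against 5.08 and 7.88 in control libraries. Of the 8, 0 passed there with limma, 0 with edgeR and 2 with DESeq2, which called 1.21% of all genes. The 3 at an unadjusted limma p under 0.05 were all higher, beside 12.8% of all genes at that p. Ctss was also the 1 protease of the list that passed in the difference between the effects, at -5.93 ± 0.59 (limma adjusted p = 0.0384), and between the control groups, where it was higher in Lrig1 control cells at 3.90 ± 0.42 (limma adjusted p = 0.00400). Leukocyte markers were likewise lower with ablation in Lrig1 cells and higher with ablation in K14 cells. Their sums were 41.7 and 89.2 in Lrig1 ablation against 161 and 268 in Lrig1 control libraries. In K14 cells they were 114 and 116 in ablation against 48.7 and 42.3 in control libraries. Lrig1 ablation and K14 control libraries overlapped in these sums, which they did not for Ctss. The part of leukocyte markers in the Ctss values was not tested.

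The median log2 fold change with Lrig1 ablation over 13 tested proteases of the epidermis outside that list was -1.65. Where 4.06% of all genes passed, 6 of the 13 fell and 0 rose. They include caspase-14 (Casp14, which processes filaggrin), at -1.89 ± 0.19, and the kallikrein Klk8, at -1.69 ± 0.30 (SE; limma adjusted p = 0.00342 and 0.0249). Of 12 tested epidermal inhibitors that are not serpins of this clade, 3 fell and 0 rose: the cystatin Cstb at -1.35 ± 0.16, the membrane inhibitor Spint1 at -1.07 ± 0.17 and Spink5, which encodes the kallikrein inhibitor LEKTI, at -2.14 ± 0.45 (SE; limma adjusted p = 0.00691, 0.0158 and 0.0421). In K14 cells 0 of the 13 proteases and 0 of the 12 inhibitors passed with limma, with edgeR or with DESeq2. An unadjusted limma p under 0.05 was found for 5 proteases, 4 of them higher and 1 lower, and for 3 inhibitors, all higher. Beside them, 12.8% of all genes reached that p. Between the control groups, where 8.79% of all genes passed, 10 of the 13 proteases and 5 of the 12 inhibitors were higher in Lrig1 control cells. None was lower. Spink5 stood at 4.13 ± 0.45 and Klk7 at 5.68 ± 0.86 (SE, limma adjusted p = 0.00400 and 0.00886).

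Serpins of other clades gave 22 tested genes of 31 in the table. With Lrig1 ablation 1 fell and 0 rose: Serpina12 (vaspin, an inhibitor of kallikrein 7), with 1.77 and 0 normalised reads in Lrig1 ablation libraries against 46.6 and 76.1 in Lrig1 control libraries (log2 fold change -5.18 ± 0.70 SE, limma adjusted p = 0.0104). The median over the 22 was -0.64, beside -1.14 for the 16 Serpinb members. With K14 ablation 0 passed with limma, edgeR or DESeq2, and the median was -0.44. An unadjusted limma p under 0.05 was reached by 5, all lower, beside 12.8% of all genes. Between the control groups Serpina12 was higher in Lrig1 control cells, at 2.97 ± 0.70, and Serpine3 was lower, at -1.58 ± 0.39 (SE; limma adjusted p = 0.0379 and 0.0461).

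Keratinocyte and other markers were compared in the same way. Over the 8 suprabasal markers tested, the median log2 fold change with Lrig1 ablation was -2.03. Of these, 5 fell and 0 rose, where 4.06% of all genes passed. Among the 5 were Krt10 at -2.13 ± 0.25 and Sbsn at -1.97 ± 0.20 (SE, limma adjusted p = 0.00602 and 0.00342). With K14 ablation the median was -0.55. There 0 of 8 passed with limma or edgeR and 2 with DESeq2, which called 1.21% of all genes. An unadjusted limma p under 0.05 was found for 5, 4 of them lower and 1, Krt1, higher, beside 12.8% of all genes. Krt1 had 42464 and 24209 normalised reads in K14 ablation libraries, against 15925 and 15135 in K14 control libraries, at 1.05 ± 0.28 (SE; limma adjusted p = 0.221). Summed suprabasal markers of the K14 groups overlapped, with Krt1 in that sum, and 7 of the 8 markers had negative log2 fold changes. Between the control groups, where 8.79% of all genes passed, 4 suprabasal markers were higher in Lrig1 control cells and 0 lower. Among them were Ivl at 3.40 ± 0.70 and Lor at 2.87 ± 0.42 (SE, limma adjusted p = 0.0251 and 0.00819). Of 7 tested basal markers, 0 passed in either ablation comparison with limma or edgeR, and 1 passed with DESeq2 in Lrig1 cells. In Lrig1 cells 1 marker, which was higher, had an unadjusted limma p under 0.05, beside 3643 of 18140 genes. In K14 cells 0 did. Between the control groups 6 of the 7 basal markers had lower values in Lrig1 control cells, at a median of -0.80. An unadjusted limma p under 0.05 was found for 5, 4 of them lower and 1 higher, beside 4423 of 18140 genes. DESeq2 called 4 of the 7, where it called 1619 of 18140 genes. With limma 1 passed, Krt15, which was higher at 0.82 ± 0.15 (SE; adjusted p = 0.0163). Endothelial markers summed to 50.6 and 124 in Lrig1 ablation against 809 and 868 in Lrig1 control libraries and 100.5 and 54.7 in K14 ablation against 80.2 and 66.0 in K14 control libraries, and Sele was at 0 in both Lrig1 ablation libraries. Fibroblast markers summed to 150.0 and 240.4 in Lrig1 ablation against 164 and 249.5 in Lrig1 control libraries and 97.6 and 119 in K14 ablation against 79.2 and 81.7 in K14 control libraries. The part of these markers in the Serpinb results was not tested.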

How the data were processed

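RNA-seq of FACS-isolated epidermal cells was measured in 8 libraries, made with the Ovation Solo kit from polyA RNA per the labels' protocols. The submitters' processing notes name Trimmomatic, STAR, Picard and HTSeq 0.11.1 and the builds GRCm38 and mm10. The deposited table holds a signal, read counts normalised by the authors, for 32574 genes. Whole reads were recovered from its steps for 100% of values within 0.001 normalised reads. Ablation columns carry another abbreviation than the sample titles and were matched as the group left in each population. The 18140 genes that held 1e-06 or more of a library's reads in 2 or more libraries were tested with limma 3.58.1 (R 4.3.3) with a variance trend on log2(value + 1), which understates changes of low genes, as contrasts of 4 group means over all 8 libraries. P-values were adjusted by Benjamini-Hochberg over all genes tested, at a threshold of 0.05. The script was tested on simulated data. Alternatives were edgeR 4.0.16 and DESeq2 1.42.0 on recovered reads, TMM scaling, pseudocounts of 0.5 and 5, no filter or 1e-05, a replicate block, the compared groups alone, and leaving out each library. The labels name no batch. Gene positions and exons are from GENCODE M21 and upstream sequences from RefSeq (22 of 25 members matched), aligned with Biopython 1.88.

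Members called in any comparison were given in full and other tested members by values and fold changes; of each other list, up to 4 genes with the smallest adjusted p per comparison could be named, and 1 such gene is not reported here. Plau, Krt1 and the granule proteases were named after their values were seen. The members and lists were chosen with earlier results of these data known.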

Additional observations from a re-analysis of the deposited data

Results flagged for a closer look

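Serpinb3d met the criterion for a difference between groups: its response to ablation differed between the populations by -3.68 ± 0.46 on the log2 scale, Lrig1 minus K14 (SE; limma test of the difference itself, adjusted p = 0.0401). It had 38.2 and 29.5 normalised reads in Lrig1 ablation against 147 and 195 in Lrig1 control libraries, and 54.5 and 34.3 in K14 ablation against 17.3 and 14.8 in K14 control libraries. Groups of 2 libraries are too small to test for outlying libraries.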

How the results depend on the processing

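Over 17 alternatives, 9 of them other settings and 8 leaving out 1 library, no called log2 fold change of a member changed sign. For K14 ablation the count of members passing was 3 with DESeq2 and 0 to 4 over the fits without 1 library. For Lrig1 ablation it was 0 to 9 over those fits. For the difference it was 0 without a filter on low values and 0 with a stricter one, 3 with DESeq2, and 0 to 5 without 1 library. For the control groups it was 12 with only the groups compared and 0 to 7 without 1 library. In the difference, DESeq2 called 308 of 18140 genes where those 3 members passed. Over the fits without 1 library, the number of all genes passing also rose and fell in each comparison. The swings in member counts there are therefore not particular to Serpinb. Replicate numbers did not pair the libraries: correlations of deviations between equal numbers ran from -0.049 to 0.084. The stricter filter left 12 members to test. With the number as a block, 0 members passed in the difference, where 1 of 18140 genes did. Under Lrig1 ablation 6 passed with it, without Serpinb3a, where 504 of 18140 genes did.

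Values that changed sign belonged to comparisons in which that member was not called, and the cause was not tested. Log2 fold changes of Serpinb10 with K14 ablation were 0.044 with edgeR and 0.036 with DESeq2. With Lrig1 ablation, Serpinb11 was at 0.014 with TMM scaling, 0.030 with edgeR and 0.0060 with DESeq2, and Serpinb7 at 0.28 with edgeR and 0.25 with DESeq2. Over fits without 1 library, K14 ablation values were -0.028 to 1.60 for Serpinb1a, -0.0011 to 1.07 for Serpinb9 and -0.49 to 0.42 for Serpinb10. Lrig1 ablation values were -0.21 to 0.18 for Serpinb11, -0.71 to 0.15 for Serpinb9, -0.15 to 1.06 for Serpinb6a and -3.62 to 1.19 for Serpinb7. Differences between the effects were -0.41 to 0.80 for Serpinb6a, -0.54 to 0.88 for Serpinb2, -2.23 to 2.58 for Serpinb7 and -1.46 to 0.12 for Serpinb3c. Values between the control groups were -0.048 to 0.0064 for Serpinb8 and -0.36 to 0.015 for Serpinb6c. A count of 0 allows up to 3 reads, or 2.12 to 4.23 normalised reads by library, by counting error only.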
